A study of Mus musculus with 9 samples.

Results

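The 10 genes described here encode hepcidin and the proteins that carry, sense, store and export iron: Hamp, Hamp2, Trf, Tfrc, Tfr2, Slc40a1, Hfe, Fth1, Ftl1 and Cp. They were chosen by symbol, and 9 of the 10 had an entry of that name among the 26345 named entries with a known transcript in the gene table. The values came from mouse liver, with 9 libraries in 3 groups of 3. The pair-fed mice (PF) received an isocaloric control liquid diet, the alcohol-fed mice (AF) received the Lieber-DeCarli diet with alcohol, and the third group (AF with MNA) received the alcohol diet and MNA, which the labels do not spell out, injected intraperitoneally at 50 mg/kg each day. All mice were fed for 5 weeks and were labelled as 8 weeks old. The study's methods describe male C57BL/6J mice, and the strain field reads C57BL/6 for PF and AF but C57BL/7, C57BL/8 and C57BL/9 for AF with MNA replicates 1, 2 and 3. Whether those entries name strains or are an error in the labels is not known. The study's paper does not describe the AF with MNA group. No label or method says which animal each library came from, so the p-values measure the spread between these libraries.

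Iron leaves cells through ferroportin, the protein of Slc40a1, and hepcidin, a peptide hormone made by hepatocytes and encoded by Hamp, blocks ferroportin. Hepatocytes raise Hamp in response to BMP ligands acting through SMAD proteins, with hemojuvelin, Hfe and Tfr2 as helpers, and in response to IL-6 acting through STAT3. Inside cells, iron regulatory proteins bind a hairpin called the iron-responsive element, which blocks translation when it lies in a 5′ untranslated region and protects the transcript when it lies in a 3′ untranslated region. Alcohol drinking is known as a setting in which liver iron handling is disturbed.

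The sequences below are shown because they carry those controls. The first set is the 150 bases before the RefSeq start of Hamp (GRCm38.p6, chr7:30944030-30944179, minus strand) and of Hamp2 (chr7:30924182-30924331, minus strand), with 2 motifs in capitals: GGCGCC, the core of BMP-responsive elements, and TTCNNNGAA, the STAT palindrome. Both motifs read the same on both strands.
Hamp: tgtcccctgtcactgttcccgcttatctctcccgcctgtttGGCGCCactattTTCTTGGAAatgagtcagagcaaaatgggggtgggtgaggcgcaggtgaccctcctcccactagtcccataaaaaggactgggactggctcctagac
Hamp2: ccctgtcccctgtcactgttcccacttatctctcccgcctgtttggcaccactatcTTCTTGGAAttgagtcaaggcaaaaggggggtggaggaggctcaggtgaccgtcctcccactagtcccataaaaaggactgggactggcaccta
The motifs were searched in the whole RefSeq windows, which run from 250 bases before the start to 50 bases after it. In Hamp, GGCGCC began at position -109 and TTCTTGGAA at position -97 from the start. The Hamp2 window held TTCTTGGAA at position -94 and no GGCGCC. Of 32851 RefSeq promoter windows of that 300-base kind, 11.9% held GGCGCC, 8.3% held TTCNNNGAA and 0.645% held both. Among the other members with a window, GGCGCC was found in Tfrc at position -89 and TTCNNNGAA in none. Trf and Slc40a1 had no window in the table.

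The second set is the iron-responsive elements found by a search of GENCODE vM21 transcripts (GRCm38), with the 6-base loop CAGTGN in capitals. The search asked for a C, 5 bases, the loop (its last base not G) and 5 bases that pair with the first 5, with at least 3 of the next 5 positions below them also paired.
Fth1 (5′ untranslated region, chr19:9982731-9982760, plus strand): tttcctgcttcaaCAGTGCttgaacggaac
Ftl1 (5′ untranslated region, chr7:45459779-45459808, minus strand): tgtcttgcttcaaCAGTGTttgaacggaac
Slc40a1 (5′ untranslated region, chr1:45925465-45925494, minus strand): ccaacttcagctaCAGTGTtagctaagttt
Tfrc (3′ untranslated region, chr16:32631218-32631247, plus strand): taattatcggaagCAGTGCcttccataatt
Tfrc (3′ untranslated region, chr16:32631597-32631626, plus strand): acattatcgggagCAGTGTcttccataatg
Tfrc (3′ untranslated region, chr16:32631662-32631691, plus strand): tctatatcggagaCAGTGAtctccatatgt
Tfrc (3′ untranslated region, chr16:32631709-32631738, plus strand): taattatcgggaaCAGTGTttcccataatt
The 5′ match was present in 3 of the 10 members and in 9 of 20899 genes, or 0.0431%. The 3′ match was present in 1 of the 10 members and in 24 of 21028 genes, or 0.114%. These are matches of letters and pairing in the reference, and no protein binding was measured here.

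Expression was given as FPKM, the fragments of a gene relative to its transcript length and to the size of the library, so levels can be compared between genes. The entries named Trf and Hamp also held transcripts of other genes, as given below, so their levels are not of those genes alone. Over the 9 libraries, Trf had the highest mean at 1010 FPKM (range 882 to 1247) and ranked 35 of the 26345 entries. Hamp followed at 637 FPKM (174 to 976), Fth1 at 624 FPKM (271 to 947) and Ftl1 at 361 FPKM (232 to 625). Cp had 70.4 FPKM (63.7 to 79.2) and Tfr2 51.6 FPKM (46.5 to 63.3). Slc40a1 had 9.70 FPKM (7.44 to 13.0), Hfe 5.37 FPKM (4.36 to 7.15) and Tfrc 3.51 FPKM (2.32 to 6.14). Each gene was above the next in that order in all 9 libraries except Hamp, which exceeded Fth1 in 5 of 9, so those neighbours did not differ beyond their spread. The ranges also overlapped between Trf and Hamp, Fth1 and Ftl1, and Hfe and Tfrc. The coefficient of variation over the libraries was 42.3% for Hamp, 37.0% for Tfrc, 35.5% for Fth1 and 32.8% for Ftl1, and between 8.00% and 19.4% for the other 5.

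**Figure D1:**
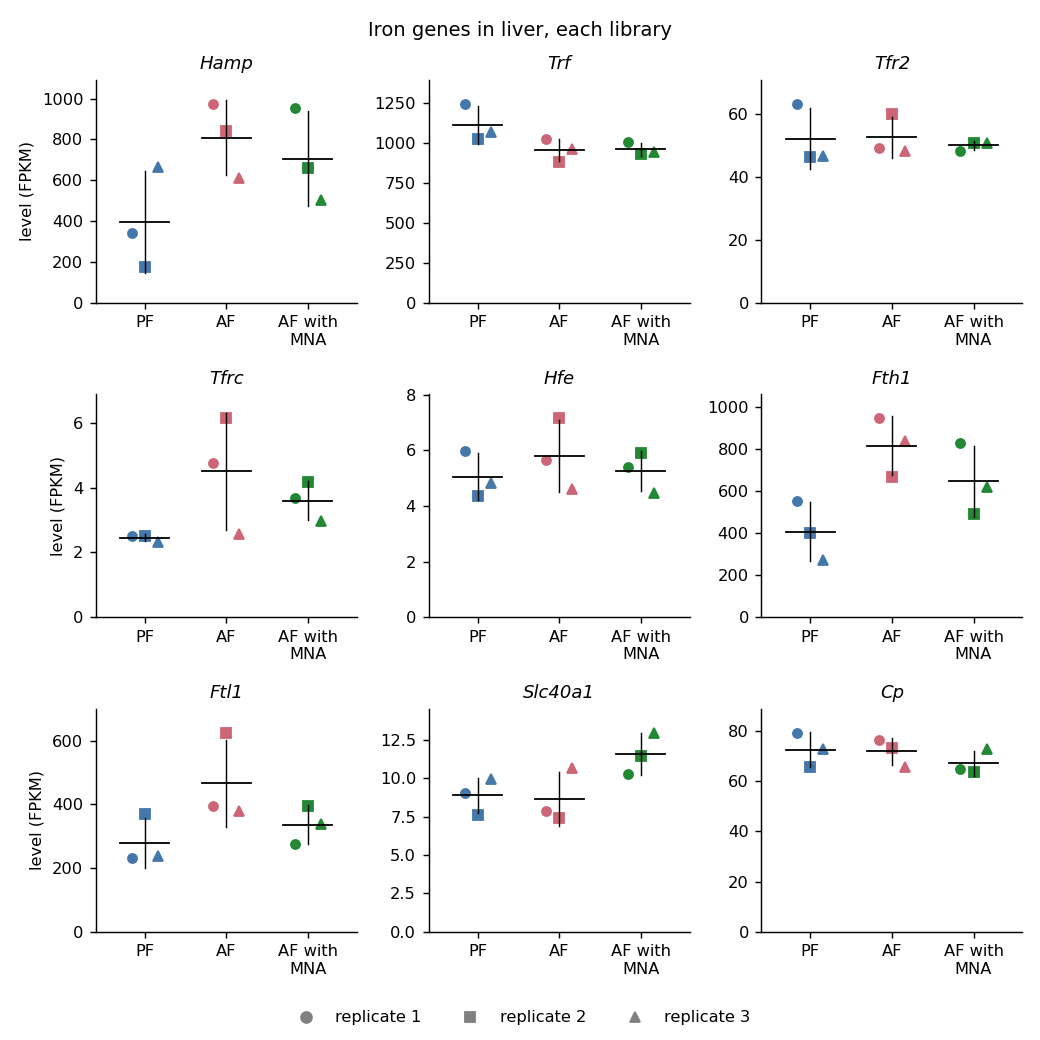
Level of each measured iron gene (FPKM, linear axis from 0) in the 3 libraries of PF, AF and AF with MNA; points are libraries with the replicate number as the symbol, horizontal bars are group means and vertical lines are 1 SD. The AF points of Fth1, Ftl1 and Tfrc lie above all PF points, while PF replicate 3 of Hamp (667 FPKM) lies above AF replicate 3 (610 FPKM).

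Each library held between 57800660 and 82179248 reads, as recovered from the constant that links junction counts to their normalized signal. The libraries held all 8 hepatocyte markers listed, at a summed 17995 to 25041 FPKM, with Alb, the gene of albumin, the most abundant. The summed level of 7 Kupffer cell markers was 65.4 to 79.6 FPKM across PF, 51.5 to 95.7 across AF and 66.7 to 87.1 across AF with MNA. Of 7 sinusoidal endothelial markers the sum was 27.2 to 32.8, 32.1 to 45.0 and 39.1 to 46.7 FPKM in the same order. Of 6 stellate cell markers it was 29.0 to 29.9, 26.0 to 36.3 and 27.0 to 39.8 FPKM, of 5 cholangiocyte markers 3.27 to 4.31, 4.86 to 9.12 and 3.34 to 6.33 FPKM, and of 6 red blood cell markers 332 to 450, 293 to 650 and 286 to 420 FPKM. Most of the cholangiocyte sum came from Spp1, with 2.09 to 2.97, 3.39 to 6.66 and 2.20 to 4.82 FPKM in the same order. Krt7, Krt19 and Epcam were at or under 0.64 FPKM in every library. No listed marker was at 0 in every library. In whole liver, fewer cells of a type and less RNA per cell cannot be told apart. Transcripts assembled inside introns summed to 9433 FPKM across AF replicate 3 and 8934 across AF with MNA replicate 1, against 2477 to 4937 in the other 7 libraries, and their part in the results below was not tested.

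The first comparison asked how alcohol feeding changed these genes. With limma's unadjusted p under 0.05 and a log2 ratio of group means beyond 1 as the threshold, values that the study's methods set for lncRNAs, 2 of the 9 measured members, Hamp and Fth1, rose in AF and none fell. That count was 0 or 1 whichever library was left out, as given for each gene below. Over all 12268 entries tested with limma, 4.30% passed that threshold, 1.95% with a rise in AF. At an unadjusted p under 0.05 alone, 4 of 9 members passed, and all 4 (Hamp, Tfrc, Fth1 and Ftl1) were higher in AF, against 11.7% of all entries in either direction and 5.10% higher in AF. That count was 2 with median scaling (Hamp and Fth1), 2 with every mean above 0 tested (Fth1 and Ftl1), and 1 to 3 with 1 library left out. No member had an adjusted p under 0.05, which 0.326% of all entries had. The PF and AF values did not overlap for Trf, Tfrc, Fth1 and Ftl1, compared with 18.3% of all entries. The median log2 ratio was 0.20 for the 9 members and -0.03 for all entries. These members were chosen with earlier results of the same libraries known, so the counts describe the libraries and are not independent evidence.

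**Figure D2:**
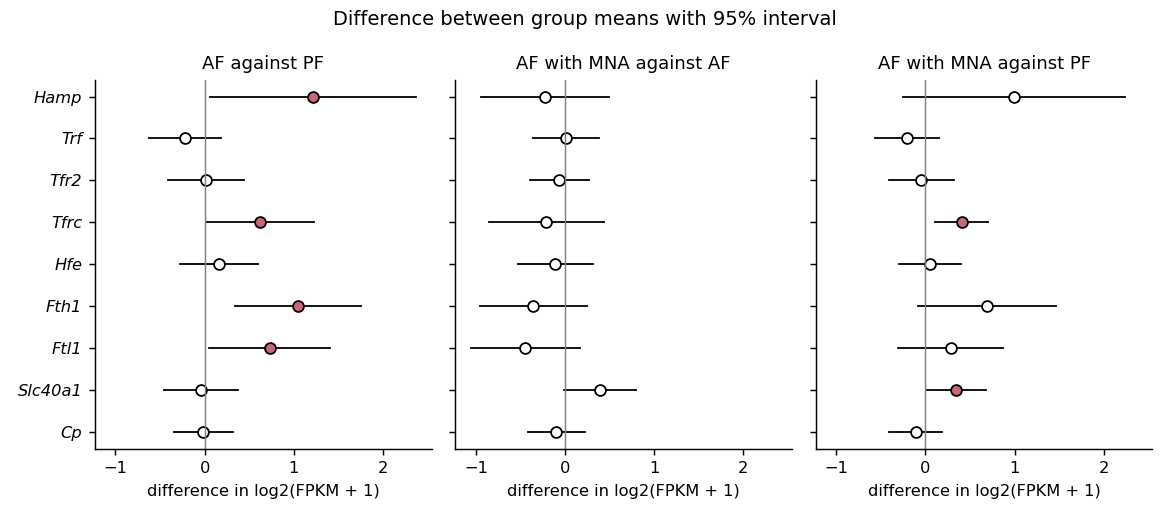
Difference in mean log2(FPKM + 1) between groups (points) with the 95% interval from limma (lines) for the 9 measured genes in each of the 3 comparisons; filled points have an unadjusted p under 0.05. The filled points all lie to the right of 0, from 0.35 for Slc40a1 across AF with MNA against PF to 1.22 for Hamp in AF against PF.

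Hamp, the gene of hepcidin (chr7:30942368-30944032), had 342, 174 and 667 FPKM across PF and 976, 842 and 610 FPKM across AF. PF replicate 3 was higher than AF replicate 3, so the groups overlapped. The mean was 394 ± 251 FPKM across PF and 809 ± 185 across AF (SD, n = 3), a 2.05-fold difference. The difference was 1.22 on the log2(FPKM + 1) scale (SE 0.48, 95% interval 0.06 to 2.37), with an unadjusted p under 0.05 and an adjusted p of 0.404 by limma with Benjamini-Hochberg adjustment. Leaving out PF replicate 3 raised the log2 ratio to 1.65, and the gene stayed past the threshold. Leaving out any of the other 5 libraries ended the call: the log2 ratio was 0.94 without PF replicate 1, 0.68 without PF replicate 2, 0.88 without AF replicate 1, 1.01 without AF replicate 2 and 1.20 without AF replicate 3. The call also ended when every entry with a mean above 0 was tested.

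Hamp2 (chr7:30922372-30924681), a hepcidin copy found in the mouse, had no entry of its own. The entry named Hamp held 5 transcripts, of which 1 was Hamp, 3 were Hamp2 and 1 was an assembled transcript, so the values above cover both genes and cannot be split between them. Aligned to each other, the first reference transcripts of Hamp and Hamp2 were identical at 388 of 420 columns (92.4%), their coding sequences at 236 of 252 (93.7%) and the whole 300-base RefSeq promoter windows, not only the printed part, at 276 of 303 (91.1%). Of the 361 stretches of 50 bases in that Hamp transcript, 60 (16.6%) also occurred in that of Hamp2. A read from such a stretch could come from either gene.

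Ferritin, the iron store, is built from a heavy chain that oxidises iron (Fth1) and a light chain (Ftl1). Fth1 (chr19:9980598-9985098) had 551, 401 and 271 FPKM across PF and 947, 666 and 838 FPKM across AF, and every AF library was above every PF library. Its mean went from 407 ± 140 to 817 ± 142 FPKM (SD, n = 3), 2.01-fold, with a log2 difference of 1.05 (SE 0.29, 95% interval 0.34 to 1.75), an adjusted p of 0.272 by limma. The log2 ratio of means was 1.00 and lay just past the threshold. It fell to 0.99 without PF replicate 2, 0.78 without PF replicate 3, 0.88 without AF replicate 1 and 0.98 without AF replicate 3, which ended the call. Its unadjusted p stayed under 0.05 whichever library was left out.

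Ftl1 (chr7:45457944-45459884) had 232, 370 and 238 FPKM across PF and 394, 625 and 379 FPKM across AF. The lowest AF value exceeded the highest PF value by a small margin. The ratio of means was 1.66-fold (280 ± 78.3 against 466 ± 138 FPKM, SD, n = 3), with a log2 difference of 0.73 (SE 0.28, 95% interval 0.05 to 1.40), an adjusted p of 0.394 by limma, so Ftl1 did not pass the fold threshold. Its unadjusted p no longer passed 0.05 without PF replicate 1, PF replicate 3 or AF replicate 2, where the log2 ratio was 0.62, 0.63 and 0.47. The ratio of Fth1 to Ftl1 differed more between libraries than between groups. It was 2.38, 1.08 and 1.14 across PF, 2.41, 1.07 and 2.21 across AF, and 3.02, 1.24 and 1.84 across AF with MNA.

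A pair of transcripts related to Ftl1 are given because of their place and sequence, and were chosen after their values were seen. Gm10252 is a known single-exon lncRNA on the strand opposite Ftl1 (chr7:45459469-45460300), overlapping 416 bases of the gene. It had 373, 278 and 348 FPKM across PF, 495, 523 and 658 across AF and 508, 580 and 501 across AF with MNA, a level near that of Ftl1 itself, and 39.2% of its 50-base stretches were the reverse complement of the Ftl1 transcript. The libraries keep strand, but how the strand was used in the counting is not given in the sources used here, so reads of the pair may not be fully separated. Its log2 difference between AF and PF was 0.74 (SE 0.19, adjusted p = 0.243 by limma). Ftl1-ps1, a ferritin light chain pseudogene, had 10.8, 10.5 and 11.5 FPKM across PF and 17.9, 21.6 and 25.7 across AF (log2 difference 0.92, SE 0.16, adjusted p = 0.106 by limma). For AF with MNA against PF the log2 difference was 0.68 for Gm10252 (adjusted p = 0.181 by limma) and 0.85 for Ftl1-ps1 (adjusted p = 0.152), beside 0.28 for Ftl1 (adjusted p = 0.648). Reads shared by Ftl1 and its pseudogene could have been placed at either.

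**Figure D3:**
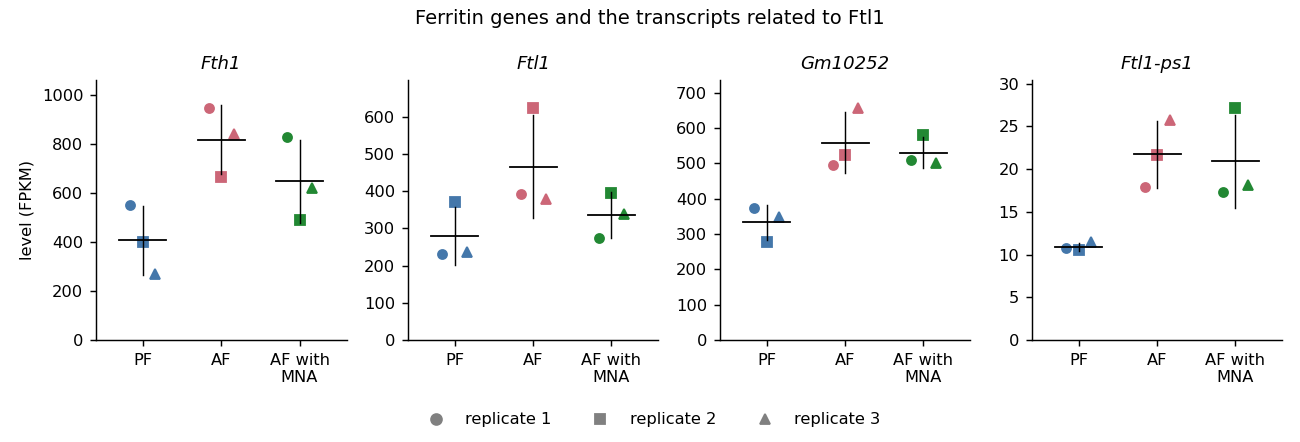
Levels (FPKM, linear axes from 0) of Fth1, Ftl1, the opposite-strand lncRNA Gm10252 and the pseudogene Ftl1-ps1 in each library, with group means (horizontal bars) and 1 SD (vertical lines). All AF points lie above all PF points in the 4 panels, and replicate 2 has the highest Ftl1 and the lowest Fth1 of its group in AF and in AF with MNA.

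Transferrin, the plasma iron carrier, is encoded by Trf (chr9:103204001-103230444). Trf had 1247, 1024 and 1070 FPKM across PF and 1023, 882 and 961 FPKM across AF. The groups were separated by about 1 FPKM between PF replicate 2 and AF replicate 1, and the log2 difference of -0.22 (SE 0.17, 95% interval -0.62 to 0.19, adjusted p = 0.668 by limma) did not pass the test. The Trf entry also held 3 transcripts of the neighbouring gene Srprb and 1 of Gm20425 among its 15, so its level is not of Trf alone.

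Tfrc (chr16:32608920-32632794) encodes transferrin receptor 1, which takes up iron-loaded transferrin. It had 2.50, 2.52 and 2.32 FPKM across PF and 4.77, 6.14 and 2.58 FPKM across AF, so AF replicate 3 was almost level with PF and the other AF libraries were well above it. The means were 2.45 ± 0.11 and 4.50 ± 1.80 FPKM (SD, n = 3), a 1.84-fold difference, and the log2 difference was 0.62 (SE 0.25, 95% interval 0.01 to 1.22), with an adjusted p of 0.417 by limma. Without AF replicate 3 the log2 ratio was 1.16, past the threshold (adjusted p = 0.124 by limma). Without any other library the unadjusted p no longer passed 0.05, with log2 ratios of 0.89, 0.90 and 0.84 without PF replicates 1, 2 and 3, 0.83 without AF replicate 1 and 0.59 without AF replicate 2.

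Tfr2 and Hfe, the receptor partners that sense transferrin iron on hepatocytes, did not pass the test. Tfr2 (chr5:137569840-137587481) had 63.3, 46.5 and 46.8 FPKM across PF and 49.2, 60.2 and 48.3 across AF, with a log2 difference of 0.02 (95% interval -0.41 to 0.44). Hfe (chr13:23702034-23710854) had 5.98, 4.36 and 4.81 FPKM across PF and 5.64, 7.15 and 4.60 across AF, with a log2 difference of 0.16 (95% interval -0.28 to 0.60). The groups overlapped for both genes. Tfr2 exceeded Tfrc 18.4- to 25.3-fold in the PF libraries, 9.80- to 18.7-fold in AF and 12.2- to 17.2-fold in AF with MNA, on the FPKM scale.

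The export genes did not pass it either. Slc40a1 (chr1:45908068-45926523), which encodes ferroportin, had 9.07, 7.64 and 9.94 FPKM across PF and 7.86, 7.44 and 10.7 across AF, with a log2 difference of -0.04 (95% interval -0.45 to 0.37). Cp (chr3:19957054-20009145) encodes ceruloplasmin, the copper protein that oxidises exported iron. It had 79.2, 65.6 and 72.8 FPKM across PF and 76.5, 73.2 and 65.7 across AF, with a log2 difference of -0.01 (95% interval -0.35 to 0.32), the narrowest interval of the 9.

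The second comparison asked how MNA changed the members in alcohol-fed mice. By limma, 0 of the 9 measured members passed the threshold, 0 had an unadjusted p under 0.05, and 0 had groups that did not overlap. Among the 12214 entries tested, 1.98% passed the threshold, 5.22% had an unadjusted p under 0.05, 0.0491% had an adjusted p under 0.05 and 10.1% had groups that did not overlap. The median log2 ratio was -0.14 for the members and 0.01 for all entries. The 3 AF with MNA libraries had 957, 661 and 501 FPKM of Hamp (706 ± 231, SD, n = 3), and the log2 difference from AF was -0.22 (95% interval -0.94 to 0.50). Fth1 had 828, 491 and 622 FPKM (log2 difference -0.35, 95% interval -0.96 to 0.25) and Ftl1 had 275, 396 and 338 FPKM (log2 difference -0.45, 95% interval -1.06 to 0.16). For these 3 genes the intervals include both no difference and a fall of more than 0.9 on the log2 scale.

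Slc40a1 came nearest to the p threshold in that comparison. It had 10.2, 11.5 and 13.0 FPKM across AF with MNA, and AF replicate 3 (10.7 FPKM) lay among these values while the other AF libraries lay below them. The log2 difference was 0.39 (SE 0.17, 95% interval -0.02 to 0.79, adjusted p = 0.940 by limma). Without AF replicate 3, the log2 ratio was 0.60 and the unadjusted p passed 0.05. Ferroportin is abundant in Kupffer cells. Of the 7 Kupffer cell markers, 6 had a higher mean in AF with MNA than in AF, such as Vsig4 (1.49-fold) and Clec4f (1.31-fold). None of the 7 had an unadjusted p under 0.05, against 5.22% of all entries. The median log2 ratio was 0.33, beside 0.01 over all entries. The summed level of these markers, to which Cd5l gave the most, overlapped between the groups, and their part in the value of Slc40a1 was not tested. Tfrc had 3.67, 4.16 and 2.96 FPKM across AF with MNA, inside the range of AF (adjusted p = 0.983 by limma). Without AF replicate 3 its log2 ratio was -0.60 and the unadjusted p passed 0.05.

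Trf (1008, 932 and 945 FPKM), Tfr2 (48.3, 50.9 and 50.9 FPKM), Hfe (5.40, 5.90 and 4.48 FPKM) and Cp (64.8, 63.7 and 72.7 FPKM) differed from AF by between -0.11 and 0.01 on the log2 scale. The widest of these 4 intervals, that of Hfe, ran from -0.53 to 0.32.

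The third comparison set AF with MNA against PF, and it shares its libraries with both comparisons above. None of the 9 measured members passed the threshold, which 3.89% of the 12276 tested entries did. At an unadjusted p under 0.05, 2 members passed, both higher in AF with MNA (Tfrc and Slc40a1), against 14.5% of all entries and 6.52% higher in AF with MNA. No member had an adjusted p under 0.05, which 0.432% of all entries had. The groups did not overlap for Trf, Tfrc and Slc40a1, compared with 21.4% of all entries. The median log2 ratio was 0.26 for the members and -0.02 for all entries.

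Tfrc was 1.47-fold higher in AF with MNA (3.60 ± 0.60 FPKM against 2.45 ± 0.11, SD, n = 3), with a log2 difference of 0.41 (SE 0.12, 95% interval 0.11 to 0.70), an adjusted p of 0.254 by limma. Slc40a1 was also higher (11.6 ± 1.36 FPKM against 8.88 ± 1.16, SD, n = 3), with a log2 difference of 0.35 (SE 0.14, 95% interval 0.02 to 0.68), an adjusted p of 0.328 by limma. Its unadjusted p no longer passed 0.05 without PF replicate 1, PF replicate 2, AF with MNA replicate 2 or AF with MNA replicate 3, where the log2 ratio was 0.40, 0.28, 0.39 and 0.29. Hamp differed by 1.00 (95% interval -0.25 to 2.24, adjusted p = 0.449 by limma). Without PF replicate 3 the log2 ratio of Hamp was 1.45, past the threshold (adjusted p = 0.308 by limma). Fth1 differed by 0.69 (95% interval -0.08 to 1.46, adjusted p = 0.395 by limma). Without PF replicate 1 its log2 ratio was 0.95 and the unadjusted p passed 0.05. The differences of the other 5 members ran from -0.21 for Trf to 0.28 for Ftl1 on the log2 scale.

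Hamp is controlled by BMP signals, and 20 genes of that branch were listed, of which 19 were tested in each comparison. In AF against PF, 2 of 19 rose past the threshold and 0 fell, against 4.30% of all entries (1.95% with a rise). The median log2 ratio was 0.16 beside -0.03 over all entries. The genes that rose were Id1 and Smad7, which BMP signals switch on. Smad7, an inhibitor of the pathway, had 1.29, 2.02 and 2.17 FPKM across PF and 6.11, 1.96 and 4.73 across AF (log2 ratio 1.22, adjusted p = 0.415 by limma). Id1 had 1.06, 1.59 and 3.36 FPKM across PF and 9.71, 2.73 and 5.38 across AF (log2 ratio 1.57, adjusted p = 0.390 by limma). AF replicate 2 was the lowest AF library for both genes and overlapped PF. Its Hamp level, 842 FPKM, was not the lowest of its group, and the link of Hamp to these genes was not tested.

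Both calls depended on single libraries, and that of Smad7 also ended with every mean above 0 tested, with a minimum mean of 2 FPKM and with the threshold set on limma's difference (0.82). Smad7 stayed past the threshold without AF replicate 2 (log2 ratio 1.57) and lost its call without any other library, with log2 ratios of 1.03, 1.302 and 1.37 without PF replicates 1, 2 and 3, 0.87 without AF replicate 1 and 1.14 without AF replicate 3. Id1 lost its call without PF replicate 1, PF replicate 2, AF replicate 1 or AF replicate 3, with log2 ratios of 1.26, 1.43, 1.02 and 1.63.

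Between AF with MNA and PF, 3 of 19 rose and 0 fell, against 3.89% of all entries in either direction, with a median log2 ratio of 0.18. Smad7 had 4.66, 4.75 and 3.06 FPKM across AF with MNA (log2 ratio 1.19, adjusted p = 0.155 by limma), Id1 had 3.51, 9.72 and 3.51 FPKM (1.48, adjusted p = 0.335), and Id3, a relative of Id1, had 2.67, 5.20 and 2.34 FPKM against 2.17, 1.17 and 0.99 across PF (1.24, adjusted p = 0.292). All AF with MNA libraries were above all PF libraries for the 3 genes. The log2 ratio of Smad7 was 0.99 without PF replicate 1, just short of the threshold, and its unadjusted p stayed under 0.05 whichever library was left out. Id1 lost its call without PF replicate 1, PF replicate 2 or AF with MNA replicate 2 (log2 ratios 1.17, 1.34 and 0.81). Id3 lost it without PF replicate 2, PF replicate 3 or AF with MNA replicate 2 (1.11, 1.03 and 0.80). In AF with MNA against AF, 0 of 19 passed, also at an unadjusted p under 0.05, against 1.98% and 5.22% of all entries.

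The ligands and cofactors of that branch did not pass the threshold. The ligand Bmp2, named after its values were seen, had 1.93, 1.70 and 1.89 FPKM across PF, 3.87, 1.92 and 4.18 across AF and 3.17, 2.91 and 2.21 across AF with MNA. Its unadjusted p was under 0.05 in AF against PF (log2 ratio 0.85, adjusted p = 0.417 by limma), where 1 AF library overlapped PF, and in AF with MNA against PF (log2 ratio 0.59, adjusted p = 0.271), where the groups did not overlap. Bmp6, a ligand from sinusoidal endothelial cells, had 1.15, 1.77 and 1.63 FPKM across PF, 2.16, 1.39 and 2.32 across AF and 2.46, 1.58 and 1.93 across AF with MNA (adjusted p = 0.669 for AF against PF by limma). The sum of the endothelial markers was higher in AF with MNA than in PF, as given above, and its part in this branch was not tested. Tmprss6, the protease that cuts hemojuvelin, had means of 49.2, 49.1 and 48.0 FPKM across PF, AF and AF with MNA. Hemojuvelin (entered as Hfe2) had 7.97, 6.90 and 6.48 FPKM.

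The other known input is inflammation. Of 9 listed genes of the IL-6 and STAT3 branch 8 were tested, and 0 passed the threshold in any comparison. At an unadjusted p under 0.05 the count was 0 across AF against PF, 0 across AF with MNA against AF, and 1 higher and 2 lower in AF with MNA against PF, where 14.5% of all entries passed and 6.52% were higher. Il6 itself was at or under 0.08 FPKM in every library. Among the acute phase proteins, 9 of 10 listed genes were tested, and 0 passed the threshold or an unadjusted p under 0.05 in any comparison, where 4.30%, 1.98% and 3.89% of all entries passed the threshold and 11.7%, 5.22% and 14.5% that p.

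Those genes varied between libraries of a group, and PF replicate 1 and AF replicate 2 stood apart. The summed level of the 9 acute phase genes was 4173, 1847 and 2084 FPKM across PF, 2891, 5564 and 2074 across AF and 2312, 2526 and 2211 across AF with MNA. Saa1, serum amyloid A, had 184, 4.88 and 2.70 FPKM across PF, 5.43, 214 and 1.64 across AF and 42.0, 42.8 and 3.43 across AF with MNA. Socs3, a STAT3 target, had 10.5, 1.45 and 1.77 FPKM across PF, 3.63, 8.10 and 2.84 across AF and 1.40, 6.10 and 3.44 across AF with MNA. PF replicate 3 and AF replicate 1 had the highest Hamp of their groups, and the part of inflammation in the Hamp values was not tested. An alternative chosen after the data were seen left out PF replicate 1 and AF replicate 2, with 2 libraries left in each group. There, 1 member passed the threshold in AF against PF: Fth1 had a log2 ratio of 1.41 (adjusted p = 0.235 by limma) and Hamp 0.92 (adjusted p = 0.672). The log2 ratio was then 0.35 for Ftl1 and 0.60 for Tfrc, and neither had an unadjusted p under 0.05.

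**Figure D4:**
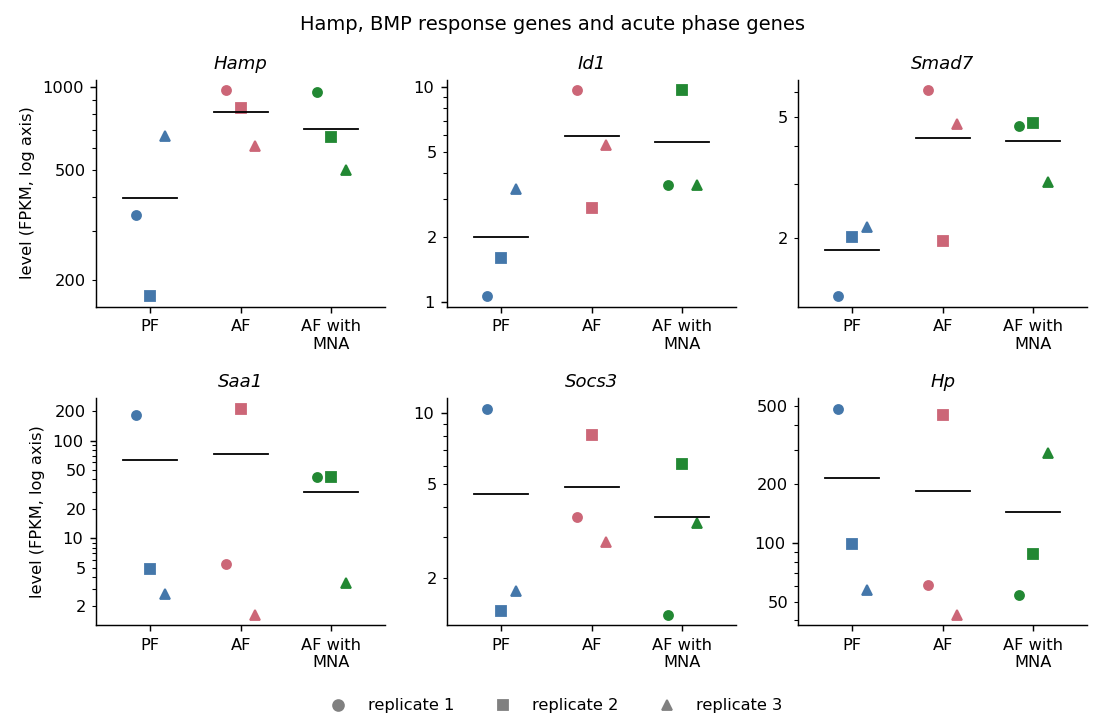
Levels (FPKM, log axes) of Hamp, the BMP response genes Id1 and Smad7, and Saa1, Socs3 and Hp, which rise in inflammation, in each library; horizontal bars are arithmetic group means. PF replicate 1 and AF replicate 2 have the highest Saa1, Socs3 and Hp of their groups. The highest Hamp of PF is in replicate 3 and that of AF in replicate 1.

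Likeness to Hamp was measured as Pearson's r of log2(FPKM + 1) over the 9 libraries, which fall into groups and differ in depth. The highest values were picked from 12252 entries and were not tested. The 5 most alike were Wwox (r = 0.92), Hacd2 (r = 0.92), Gc (r = 0.91), Ildr2 (r = 0.91) and Gbe1 (r = 0.91). Ildr2 had 0.73, 0.48 and 1.60 FPKM across PF, 4.57, 4.63 and 1.91 across AF and 4.95, 3.41 and 2.18 across AF with MNA. Gc, which encodes the vitamin D carrier of plasma, had 2061, 1766 and 2034 FPKM across PF, 2386, 2226 and 2071 across AF and 2329, 2155 and 2144 across AF with MNA. Of the other members, Tfrc was the most like Hamp (r = 0.61), followed by Fth1 (r = 0.48) and Hfe (r = 0.47), and Trf had r = -0.38.

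Heme is the largest pool of body iron, and genes that take it up and break it down were listed beside the members. Of 13 genes, 11 had a named entry and were tested. In AF against PF, 1 of 11 rose past the threshold and 0 fell, against 4.30% of all entries (1.95% with a rise), with a median log2 ratio of 0.28 beside -0.03 over all entries. It was Slc48a1, a heme transporter of the lysosome, with 9.96, 9.02 and 8.17 FPKM across PF and 22.05, 24.1 and 18.7 across AF. Its log2 ratio of 1.26 had an adjusted p of 0.0392 by limma and stayed past the threshold whichever library was left out, but the adjusted p was then 0.0581 to 0.152, and it was 0.0694 with median scaling and 0.0735 with every mean above 0 tested. Among the members and companion lists, no other gene had an adjusted p under 0.05 in this comparison. In AF with MNA it had 18.6, 17.1 and 14.7 FPKM.

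Between AF with MNA and PF, 2 of 11 rose and 0 fell, against 3.89% of all entries in either direction. The median log2 ratio was -0.01 beside -0.02. Blvrb, a biliverdin reductase, had 12.6, 10.3 and 11.7 FPKM across PF and 27.1, 25.7 and 23.1 across AF with MNA (log2 ratio 1.13, adjusted p = 0.0298 by limma), and 23.3, 18.5 and 24.5 across AF. Hmox1, heme oxygenase, which opens the heme ring and frees the iron, had 6.51, 6.48 and 4.80 FPKM across PF and 19.8, 18.1 and 8.46 across AF with MNA (log2 ratio 1.38, adjusted p = 0.218 by limma). Both calls held whichever library was left out, and that of Hmox1 was lost with all 9 libraries in 1 fit. The adjusted p of Blvrb by limma was 0.0677 to 0.101 with 1 library left out and 0.0533 with every mean above 0 tested. In AF, Hmox1 had 15.8, 160 and 10.5 FPKM, and AF replicate 2 was about 10 times the next library. All AF values were above PF, and the unadjusted p just missed 0.05. The log2 ratio of 3.39 rested mostly on AF replicate 2, and the log2 difference was 2.19 (95% interval -0.06 to 4.45, adjusted p = 0.441 by limma). Between AF with MNA and AF, 0 of 11 passed, also at an unadjusted p under 0.05, against the same 1.98% and 5.22% of all entries.

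The scavengers of free hemoglobin and heme, Hp and Hpx, were highest in PF replicate 1 and AF replicate 2, the libraries with the highest acute phase sum of their groups, but in AF with MNA the highest Hp was in replicate 3, where that sum was lowest. Hp, haptoglobin, had 487, 99.0 and 57.3 FPKM across PF, 60.7, 449 and 42.8 across AF and 53.9, 87.5 and 289 across AF with MNA. Hpx, hemopexin, had 2133, 865 and 596 FPKM across PF, 776, 2235 and 737 across AF and 940, 1322 and 1113 across AF with MNA. The groups overlapped for both genes in every comparison.

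Alas2, the heme synthesis enzyme of red cell precursors, was on the red blood cell marker list and carries an iron-responsive element in its 5′ untranslated region that spans an exon junction.
Alas2 (chromosome X, plus strand, mature transcript): tttggttcgtcctCAGTGCagggcaacagg
It had 37.2, 43.3 and 41.4 FPKM across PF, 6.66, 18.2 and 8.71 across AF and 7.54, 24.7 and 22.01 across AF with MNA, with every library of the alcohol groups below every PF library. It fell by 1.86 on the log2 scale in AF against PF (adjusted p = 0.108 by limma) and by 1.17 across AF with MNA against PF (adjusted p = 0.275). The second call was lost without PF replicate 2 (log2 ratio -1.12), PF replicate 3 (-1.16) or AF with MNA replicate 1 (-0.80). The globin Hbb-bs had 163, 236 and 183 FPKM across PF and 236, 391 and 156 across AF, and its groups overlapped. Slc4a1, a membrane protein of red cells, was at or under 0.17 FPKM in every library.

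**Figure D5:**
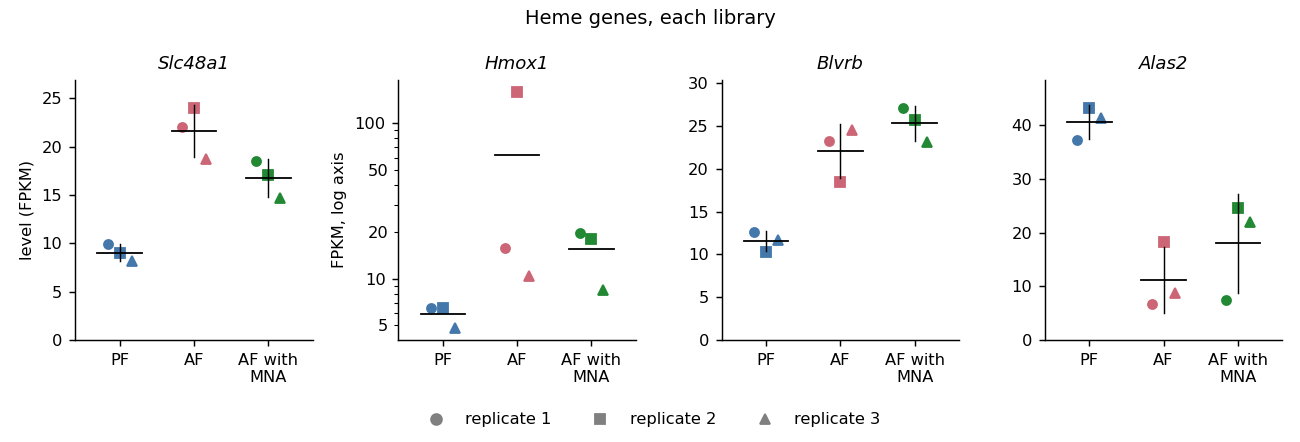
Levels (FPKM) of Slc48a1, Hmox1 (log axis), Blvrb and Alas2 in each library, with group means (horizontal bars) and, on the linear axes, 1 SD (vertical lines). All AF and AF with MNA points lie above the PF points for Slc48a1, Hmox1 and Blvrb and below them for Alas2, and Hmox1 across AF replicate 2 reaches 160 FPKM.

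Of 14 genes of iron uptake and cellular iron transport, 10 were tested and 0 passed the threshold in any comparison, against 4.30%, 1.98% and 3.89% of all entries in the 3 comparisons. Slc39a14, a transporter of iron that is not bound to transferrin, had 12.7, 11.6 and 11.2 FPKM across PF, 20.5, 33.1 and 14.2 across AF and 10.2, 13.0 and 11.4 across AF with MNA. Every AF library was above every library of the other groups. Its log2 ratio was 0.93 across AF against PF (adjusted p = 0.370 by limma) and -0.97 across AF with MNA against AF (adjusted p = 0.940). The unadjusted p was under 0.05 in both comparisons, as for 11.7% and 5.22% of all entries. Slc25a37, mitoferrin, an iron carrier of mitochondria named after its values were seen, had 3.79, 8.36 and 8.58 FPKM across PF, 4.07, 5.24 and 2.98 across AF and 6.89, 5.35 and 7.63 across AF with MNA. Its log2 ratio was 0.69 in AF with MNA against AF, where the groups did not overlap and the unadjusted p was under 0.05 (adjusted p = 0.940 by limma). Steap3, the endosomal ferrireductase, had 3.13, 2.09 and 1.63 FPKM across PF and 2.05, 1.16 and 1.88 across AF (adjusted p = 0.671 by limma).

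Of 13 genes of intracellular iron sensing and delivery, 12 were tested, and 0 passed the threshold in any comparison, where between 1.98% and 4.30% of all entries did. The iron regulatory proteins that bind the hairpins printed above are encoded by Aco1 and Ireb2. Aco1 had means of 16.6, 16.0 and 17.6 FPKM and Ireb2 of 10.5, 10.1 and 11.1 FPKM across PF, AF and AF with MNA. Ncoa4, the receptor that delivers ferritin for breakdown, had 5.75, 8.79 and 7.42 FPKM across PF and 9.64, 10.6 and 8.44 across AF (log2 ratio 0.38, adjusted p = 0.489 by limma).

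Beside Alas2, the marker list genes past the threshold were Tat of the hepatocyte list and Marco of the Kupffer cell list, both higher in AF than in PF, where 4.30% of all entries passed and 1.95% rose. Over the whole lists the median log2 ratio was -0.07 for the 8 hepatocyte markers and -0.17 for the 7 Kupffer cell markers. Among the hepatocyte markers, Ttr was at 0.64-fold and Apoa1 at 0.68-fold, with overlapping groups. Groups did not overlap for 3 of the 8, against 18.3% of all entries. These were Cps1 (1.39-fold) and Ass1 (1.37-fold), higher in AF, and Serpina1c (0.81-fold), lower. Among the Kupffer cell markers, Clec4f was at 0.64-fold and Vsig4, whose groups did not overlap, at 0.70-fold. Tat, a liver enzyme of tyrosine breakdown, had a log2 ratio of 1.24 (adjusted p = 0.393 by limma), and Marco, a scavenger receptor, one of 1.25 (adjusted p = 0.365). Tat lost its call without PF replicate 1, PF replicate 3, AF replicate 1 or AF replicate 2, and Marco without PF replicate 2, PF replicate 3, AF replicate 1 or AF replicate 2. Their log2 ratios then ran from 0.83 to 1.24 and from 0.88 to 1.27. Marco was also higher in AF with MNA than in PF (log2 ratio 1.58, adjusted p = 0.152 by limma).

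Circular RNAs of the members were rare. Of 4486 circular RNAs in the table, 5 were assigned to Cp and 1 to Tfrc, with 8 junction reads in all over the 9 libraries, and each was found in 1 library with 1 or 2 reads, so nothing can be compared at this depth. Over the members' own positions, the lncRNA table held Gm10252 at Ftl1 and Gm44662, which crosses Hamp and Hamp2 on the opposite strand and was at or under 0.0624 FPKM in every library.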

How the data were processed

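Ribosomal RNA was depleted from liver RNA, and strand-specific paired-end libraries were sequenced. Per the labels' processing notes, the tools included cutadapt 1.9, FastQC, HISAT2, TopHat, StringTie 1.3.4 and edgeR. The authors deposited FPKM values of genes and lncRNAs from StringTie, and count values of circular RNA junctions with their normalized signal. The build is not given in the sources used here, but 98.3% of 7841 known lncRNA transcripts had the same start and end in GENCODE vM21 (GRCm38). All sample columns were matched to libraries by their labels, 3 in each group.

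Entries without a gene name or a known transcript were left out (26345 of 52151 kept). limma 3.58.1 in R 4.3.3 (lmFit, then eBayes with an intensity trend) was fitted to log2(FPKM + 1) of every entry whose mean in the 6 libraries compared reached 0.5 FPKM, with Benjamini-Hochberg adjustment over all of them. Differences and intervals are on the log2(FPKM + 1) scale, and log2 ratios are of mean FPKM. A gene passed the threshold with an unadjusted p under 0.05 and a log2 ratio beyond 1. The study's methods state these limits for lncRNAs with p-values from Ballgown, and here they were applied to gene entries with limma's p. The fit was tested on simulated data. FPKM holds no counts, so no counting error could be given. RefSeq promoter windows were of GRCm38.p6.

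The members, gene lists and markers were chosen with earlier results of these data known. Named were all members, genes of the companion lists past the threshold (at most 5 for each list and comparison, by smallest p), a fixed set of iron regulators, and the 5 entries most like Hamp. Bmp2, Slc25a37, Gm10252 and Ftl1-ps1 were named after their values were seen. Some markers and other listed genes were also named without passing the threshold.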

Additional observations from a re-analysis of the deposited data

How the results depend on the processing

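The number of members past the threshold in AF against PF, 2 in the report, was 1 with the replicate number as a block, 1 with every entry of a mean above 0 tested, 0 to 1 with 1 library left out, and 1 without PF replicate 1 and AF replicate 2 together, an alternative chosen after seeing the data. Hamp was the member lost under the block and under the filter at 0. The number stayed at 2 with a pseudocount of 0.1, median scaling, a fit without the intensity trend, a fit of all 9 libraries, a minimum mean of 2 FPKM, or the threshold set on limma's difference. For AF with MNA against AF the number stayed at 0 under every alternative, and in AF with MNA against PF it was 0 or, without PF replicate 3, 1. The number of members with an unadjusted p under 0.05 in AF against PF, 4 in the report, was 2 with median scaling, 2 with every mean above 0 tested, 3 under the block, 1 to 3 with 1 library left out and 1 without both high acute phase libraries. In AF with MNA against AF, 0 in the report, it was 1 with median scaling, 1 with all 9 libraries fitted, 2 under the block and 0 to 2 with 1 library left out, and in AF with MNA against PF, 2 in the report, it was 1 with all 9 libraries fitted and 1 to 3 with 1 left out. Under the block the adjusted p by limma was 0.141 for Slc48a1 and 0.194 for Blvrb. The replicate numbers did not pair the libraries: deviations of same-numbered libraries correlated at -0.08 to 0.06, and not every library correlated best with its own number. Over all entries in AF against PF, 527 passed the threshold, 1183 with every mean above 0 tested, 265 with a minimum mean of 2 FPKM and 249 with the threshold set on limma's difference. Of the companion genes in AF with MNA against PF, Hmox1 lost its call with all 9 libraries fitted together, Id1 lost it there, under the block and with every mean above 0 tested, and Smad7, Marco and Id3 lost theirs with the threshold set on limma's difference. In AF against PF, Marco lost its call under that last setting and without both high acute phase libraries, Tat under the latter, and Smad7 under the block, either other filter and the threshold on limma's difference.

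Members near 0 turned sign. Median scaling gave Cp 0.030 in AF against PF and Trf -0.0039 in AF with MNA against AF, and leaving out both high acute phase libraries gave Slc40a1 0.076 and Cp 0.039. With 1 library left out in AF against PF, Tfr2 ran from -0.098 to 0.17, Slc40a1 from -0.22 to 0.061 and Cp from -0.082 to 0.053. For AF with MNA against AF, Trf ran from -0.045 to 0.062, Tfr2 from -0.13 to 0.037 and Hfe from -0.28 to 0.039. For AF with MNA against PF, Tfr2 ran from -0.14 to 0.10 and Hfe from -0.037 to 0.20. The cause was not tested. Leaving out 1 library leaves 2 in its group, whose spread is estimated with the help of all entries, and with 3 libraries a group the intervals of Hamp and the ferritins cannot show small differences.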
